A study of Mus musculus with 10 samples.

Results

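The Wnt ligands described here are *Wnt2b*, *Wnt3*, *Wnt3a*, *Wnt4*, *Wnt5a*, *Wnt5b*, *Wnt7a*, *Wnt7b*, *Wnt8b* and *Wnt9a*, followed one by one in RNA sequencing libraries of the cortical hem (CH). Members were the rows of the count table whose Ensembl gene carried one of these symbols, which gave 10 of the 52227 genes in the table, and all 10 passed the filter of at least 10 counts in at least 3 libraries. The CH was cut by laser capture microdissection at e13.5 from 5 wild-type (WT) and 5 *Lmx1a-/-* embryos, with the CH sections of 1 embryo pooled into 1 library. Mutants were homozygous for the spontaneous drJ allele, a point mutation that leaves the gene transcribed but the protein inactive, and all embryos, of both sexes, came from a mixed C57Bl6, FVB and CD1 background. *Lmx1a* encodes a LIM-homeodomain transcription factor, and its immunostaining on alternate sections set the borders of the captured area in both genotypes, so the captured tissue is defined by the protein that the mutation alters. The comparison asked which of the ligands that mark the CH as a signaling center depended on *Lmx1a*.

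Wnt proteins are secreted, lipid-modified signals that act at short range. Bound to Frizzled receptors and their Lrp coreceptors, they stabilize beta-catenin, which with Tcf/Lef factors switches on target genes in the canonical branch. In other branches they act through Ror and Ryk receptors and the planar polarity proteins on cell shape, movement and calcium. The CH, at the medial edge of the cortex between hippocampal primordium and choroid plexus, is known for expressing several Wnts together with Bmps, for its role in hippocampal induction and as a source of Cajal-Retzius cells.

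Among the libraries, the median total was 26931558 counts in WT (19407267 to 33130138) and 28297001 counts in *Lmx1a-/-* (19145952 to 36462780), and a ligand had between 13 (*Wnt4*) and 30751 (*Wnt8b*) counts in a library. Levels below are normalized CPM, the counts of a gene relative to its library total after TMM scaling, unless another scale is named. *Lmx1a* itself ran from 45.6 to 90.8 CPM in WT and from 89.9 to 145 CPM in *Lmx1a-/-* libraries (log2 fold change 0.68, standard error 0.17, FDR = 0.0658 by edgeR). Transcripts of *Xist*, the RNA of the inactive X, were at 1.01 CPM in WT embryo 1, at 4399 to 5169 CPM in the other 4 WT embryos and at 0.163 to 1.15 CPM in the mutants, so sex and genotype cannot be told apart except through WT embryo 1. The summed choroid plexus markers ran from 131 to 485 CPM in WT and from 149.8 to 229 CPM in *Lmx1a-/-*, with *Ttr* between 1.14 and 164 CPM and *Kl* at or near 0. Of 11 genes of this list tested, 10 had a lower mean in the mutants, 3 were called lower and none higher. The summed cortical neuroepithelium markers (7 genes tested, all with a higher mean in the mutants, 3 called higher) ran from 410.1 to 835 and from 812 to 1101 CPM. Of 9 CH markers tested, *Wnt2b* and *Wnt3a* among them, 8 had a lower mean, 4 were called lower and 1, *Lmx1a*, higher. Their summed level ran from 727 to 1531 CPM in WT and from 641 to 1037 CPM in *Lmx1a-/-*. The summed Cajal-Retzius cell markers (6 tested, 4 with a lower mean, 3 called lower and 1 higher) did not overlap, at 343 to 531 CPM in WT and 225 to 310.5 CPM in the mutants. Over all genes tested, 50.6% had a lower mean, 2.29% were called lower and 1.72% were called higher. Of 8 markers of meninges and mesenchyme, 7 had a lower mean, beside 50.6% of all genes tested, and 3 (*Lum*, *Dcn* and *Pdgfra*) were called lower. The summed levels of the 8 reached 929 CPM in WT and 516 CPM in the mutants, and overlapped. The part of these tissues in the ligand differences was not tested. In pooled tissue of this kind fewer cells of a type and less RNA per cell cannot be told apart.

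The promoters of 3 ligands are shown, those of the neighbors *Wnt3a* and *Wnt9a* because their ratio is compared below, and that of *Wnt8b* because it was the most abundant ligand. Each run is the 250 bases before the RefSeq transcript start (GRCm38.p6), written 5′ to 3′ on the strand of the gene, with capitals marking CG dinucleotides and the homeodomain core motif TAATTA. They lie at chr11:59290752-59291001 on the minus strand (*Wnt3a*), chr11:59306680-59306929 on the plus strand (*Wnt9a*) and chr19:44493222-44493471 on the plus strand (*Wnt8b*).
Wnt3a: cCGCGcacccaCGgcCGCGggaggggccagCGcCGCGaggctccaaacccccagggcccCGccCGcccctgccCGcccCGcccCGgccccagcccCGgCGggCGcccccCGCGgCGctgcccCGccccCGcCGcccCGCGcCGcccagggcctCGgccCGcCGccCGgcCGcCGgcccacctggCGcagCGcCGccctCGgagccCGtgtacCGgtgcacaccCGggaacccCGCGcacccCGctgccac
Wnt9a: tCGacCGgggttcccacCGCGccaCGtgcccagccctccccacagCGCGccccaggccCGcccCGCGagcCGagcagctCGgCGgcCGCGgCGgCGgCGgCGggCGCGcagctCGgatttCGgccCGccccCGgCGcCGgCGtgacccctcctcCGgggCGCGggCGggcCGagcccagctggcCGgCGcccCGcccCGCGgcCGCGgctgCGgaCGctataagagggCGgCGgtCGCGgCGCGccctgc
Wnt8b: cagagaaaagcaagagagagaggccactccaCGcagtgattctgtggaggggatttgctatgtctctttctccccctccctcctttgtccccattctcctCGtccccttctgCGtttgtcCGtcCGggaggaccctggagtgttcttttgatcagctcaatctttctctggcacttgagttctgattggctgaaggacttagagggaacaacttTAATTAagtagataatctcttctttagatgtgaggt
The *Wnt3a* and *Wnt9a* runs hold 41 and 48 CG dinucleotides, and the *Wnt8b* run holds 5.

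RefSeq windows of 300 bases, from 250 before to 50 after the start, were matched for 8 of the 10 ligands, all but *Wnt5a* and *Wnt7b*. Over all 32851 windows the median was 7 CG dinucleotides and 52.7% G or C. The windows of *Wnt9a* (58 CG, 83.3% G or C), *Wnt3a* (45, 86.3%), *Wnt4* (51, 84.3%), *Wnt2b* (43, 79.7%) and *Wnt7a* (42, 76.0%) were CpG-rich, that of *Wnt3* was intermediate (24, 65.7%) and that of *Wnt8b* lay near the median (6, 48.3%). *Wnt5b* has 3 annotated starts, of which 1 was CpG-rich (47 CG) and the others held 4 and 7. TAATTA, which reads the same on both strands, stands in 5.29% of all windows and among these ligands was found only for *Wnt8b*, 36 bases before the start. The Tcf/Lef core CTTTGAA, searched on both strands, stands in 5.14% of all windows and in none of these, and CTTTGAT in 3.73% of all windows and in 1 *Wnt5b* window, 71 bases before the start. These matches describe letters in a window and carry no measurement of binding.

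The CH expressed the ligands over a wide range. To compare genes with each other, counts were divided by exon length, taken as the merged length of all annotated exons of a gene. This length can exceed that of the transcript expressed, and the order of the ligands and their shares below depend on it. On this scale of normalized CPM per kilobase *Wnt8b* stood highest in both genotypes, at 245 ± 56.9 in WT and 264 ± 20.5 in *Lmx1a-/-* (SD over n = 5 embryos per genotype). *Wnt5a* came next at 48.6 ± 8.63 and 36.6 ± 2.56 CPM per kilobase. The gap was held in every library, and the ranges of the pair did not overlap in either genotype.

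Below these stood *Wnt2b* (36.0 ± 7.41 CPM per kilobase), *Wnt3a* (25.0 ± 5.60), *Wnt9a* (17.5 ± 4.95) and *Wnt7b* (16.3 ± 3.13) in WT, in an order that 5 of 5 WT libraries kept from *Wnt5a* down to *Wnt9a* and 3 of 5 from *Wnt9a* to *Wnt7b*, although neighboring ranges overlapped. *Wnt4*, *Wnt5b*, *Wnt7a* and *Wnt3* lay at the bottom, each with a WT mean between 1.41 and 7.26 CPM per kilobase, and neighbors among them exchanged places between libraries. In *Lmx1a-/-* libraries *Wnt3a* (18.3 ± 2.87) and *Wnt2b* (17.7 ± 5.00 CPM per kilobase) had changed places on the mean, with *Wnt3a* higher in 3 of 5 libraries, and *Wnt7b* (16.2 ± 3.05) stood above *Wnt9a* (9.51 ± 2.14) in 4 of 5.

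**Figure D1:**
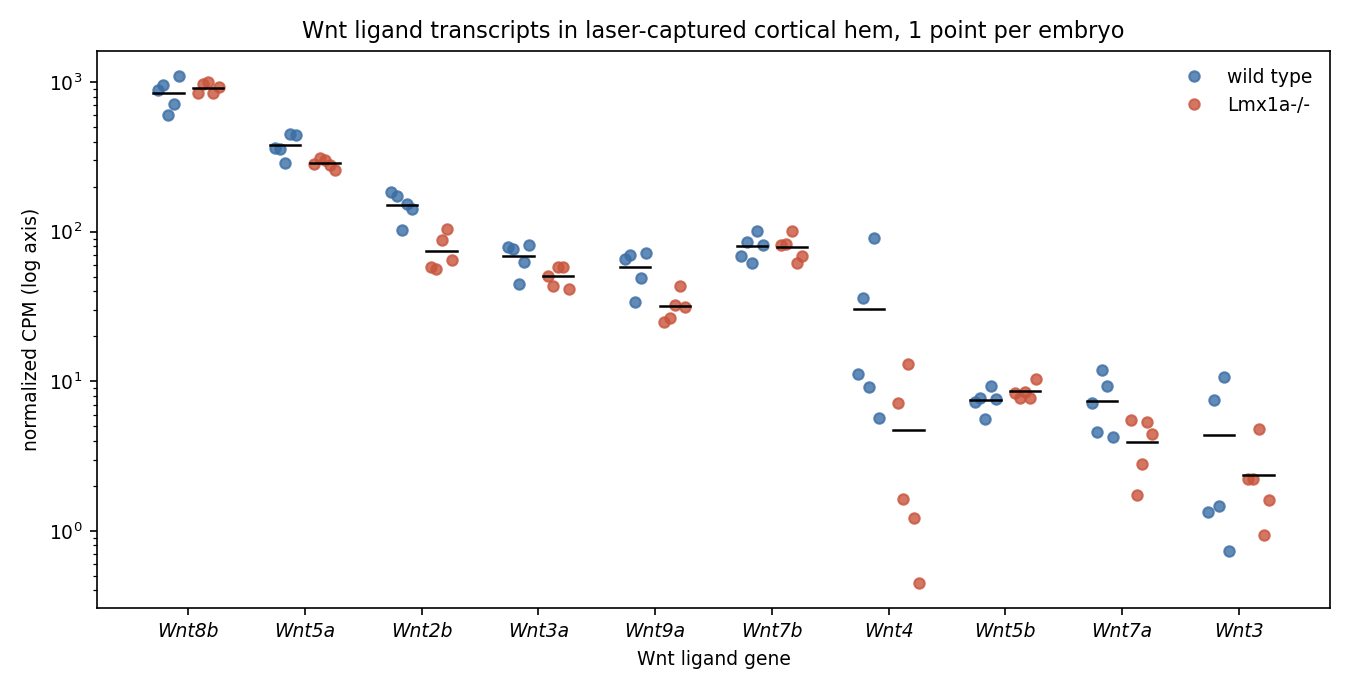
Normalized CPM (log axis) of the 10 Wnt ligands in 5 WT (blue) and 5 *Lmx1a-/-* (red) CH libraries, 1 point per embryo, with bars at the means. *Wnt2b* and *Wnt9a* points of the mutants sit below all but 1 WT point, *Wnt8b* and *Wnt7b* points of the genotypes mix, and *Wnt4* spans from 0.452 to 90.2 CPM.

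Between genotypes, *Wnt2b*, *Wnt9a* and *Wnt5a* fell in *Lmx1a-/-* CH and no ligand rose. By edgeR's quasi-likelihood test with an FDR under 0.1 over all 21664 genes tested, 3 of the 10 ligands were lower and none was higher, where the same call was made for 2.29% of all genes in the lower and 1.72% in the higher direction (4.02% in either). Without adjustment 6 ligands were lower at p under 0.05 and 0 higher, beside 8.7% and 7.66% of all genes. DESeq2 called 6 lower (*Wnt3a*, *Wnt4* and *Wnt7a* besides these 3) and 0 higher, beside 5.47% and 4.43% of the 17848 genes to which it gave an adjusted p. Without WT embryo 1 the edgeR count was 1 (*Wnt2b*). Without WT embryos 3 and 4, left out after the data were seen because their marker levels stood apart, it was 4, with *Wnt3a* added. WT embryo 3 was the lowest WT embryo for 7 of the 10 ligands, *Wnt3a* among them, so this fit is no separate support for *Wnt3a*. Of the 10 ligands 8 had a lower mean in the mutants, beside 50.6% of all genes tested. Their median log2 fold change was -0.66, beside -0.0049 over all genes tested. For none of the 10 was every mutant library below every WT library, which held for 2.27% of all genes, and for none was every mutant library above every WT library, which held for 2.17%.

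**Figure D2:**
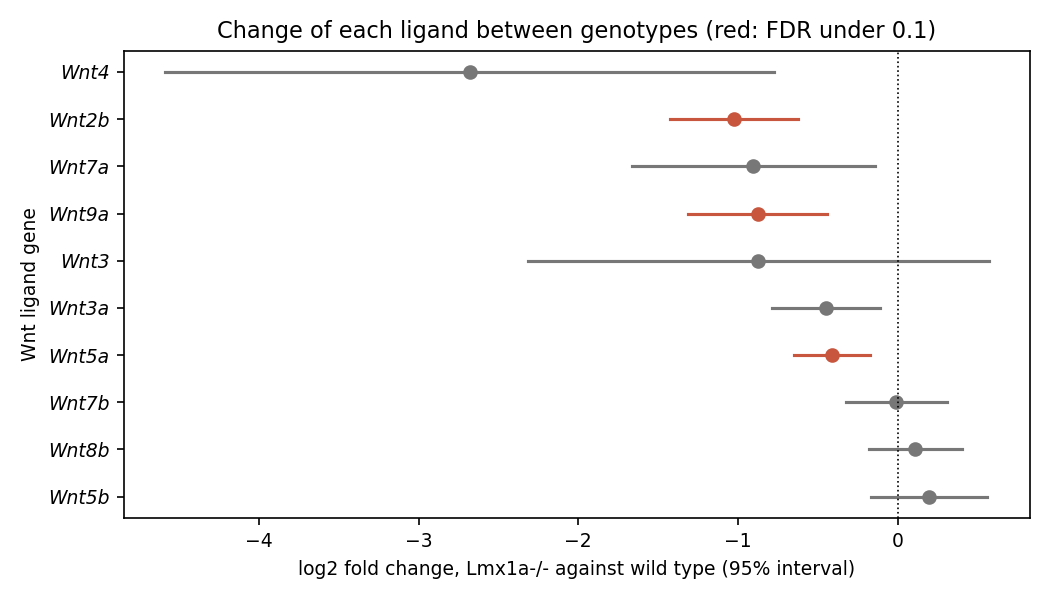
Log2 fold change of each ligand in *Lmx1a-/-* against WT CH with its 95% interval from the edgeR fit, red where the FDR was under 0.1. The intervals of *Wnt2b*, *Wnt9a* and *Wnt5a* lie below 0, those of *Wnt3a*, *Wnt7a* and *Wnt4* do so as well without passing the adjusted threshold, and those of *Wnt3*, *Wnt7b*, *Wnt8b* and *Wnt5b* span 0.

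Among the ligands known mainly for canonical signaling, *Wnt2b* (ENSMUSG00000027840, chromosome 3, 104945272 to 104961921 of GRCm38), a marker of the CH and also of the ciliary margin of the eye, changed most among those that passed. Levels were 183, 173, 103, 154 and 143 CPM in WT embryos 1 to 5 and 57.9, 56.4, 88.2, 104 and 65 CPM in *Lmx1a-/-* embryos 1 to 5. The genotypes overlapped only where WT embryo 3 met mutant embryo 4, and the other 4 mutants lay below every WT embryo. *Wnt2b* fell by 50.8%, from 151 ± 31.1 to 74.3 ± 21.0 CPM (SD over n = 5 embryos per genotype, log2 fold change -1.02, standard error 0.19, 95% interval -1.43 to -0.62, FDR = 0.0120 by edgeR). The call was kept in all 10 fits that left out 1 embryo.

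*Wnt9a* (ENSMUSG00000000126, chromosome 11, 59306928 to 59333552), known from joint formation, overlapped between genotypes at the same embryos as *Wnt2b*. It had 65.5, 70.2, 33.8, 48.8 and 72.5 CPM in WT embryos 1 to 5 and 24.9, 26.6, 32.3, 43.1 and 31.2 CPM in *Lmx1a-/-* embryos 1 to 5. WT embryo 3 was again the lowest of its group and mutant embryo 4 the highest of the other, and 4 of 5 mutants lay below every WT embryo. *Wnt9a* fell from 58.2 ± 16.5 to 31.6 ± 7.13 CPM (SD over n = 5 embryos per genotype, log2 fold change -0.88, standard error 0.20, 95% interval -1.31 to -0.44, FDR = 0.0430 by edgeR). Without WT embryo 1 it missed the threshold (edgeR FDR = 0.102).

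*Wnt3a* (ENSMUSG00000009900, chromosome 11, 59248033 to 59290752) is the hem ligand without which the hippocampus does not form. Levels in WT embryos 1 to 5 were 79.2, 76.5, 44.8, 62.3 and 81.8 CPM, and those in *Lmx1a-/-* embryos 1 to 5 were 50.5, 43.6, 58.4, 58.3 and 41.6 CPM. Only 2 mutants lay below every WT embryo, since WT embryo 3 was low, and the difference from 68.9 ± 15.5 to 50.5 ± 7.92 CPM did not pass (SD over n = 5 embryos per genotype, log2 fold change -0.45, standard error 0.16, 95% interval -0.79 to -0.11, FDR = 0.172 by edgeR). With WT embryo 3 left out the log2 fold change was -0.57 and *Wnt3a* passed (edgeR FDR = 0.0306). Over all 10 libraries it was called lower by DESeq2 (FDR = 0.0796).

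*Wnt8b* (ENSMUSG00000036961, chromosome 19, 44493472 to 44514273), a ligand of the medial wall that reaches from the hem into the hippocampal primordium, was the one canonical hem ligand with a higher mean in the mutants. WT embryos 1 to 5 had 889, 959, 599, 711 and 1097 CPM, and mutant embryos 1 to 5 had 844, 967, 1007, 852 and 929 CPM. All mutant libraries lay within the WT range, and the means of 851 ± 198 and 919.7 ± 71.4 CPM gave a log2 fold change of 0.11 (SD over n = 5 embryos per genotype, standard error 0.14, 95% interval -0.18 to 0.40, FDR = 0.738 by edgeR).

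*Wnt5a* (ENSMUSG00000021994, chromosome 14, 28504750 to 28527448) is the best known ligand of the beta-catenin-independent branches, acting through Ror2. It stood at 362, 359, 287, 450.2 and 442 CPM in WT embryos 1 to 5 and at 283, 309, 301, 279 and 258 CPM in mutant embryos 1 to 5. The mutants lay close together, 3 of them below every WT embryo and the other 2 between WT embryo 3 and the rest. *Wnt5a* fell by 24.7%, from 380.1 ± 67.5 to 286 ± 20.0 CPM (SD over n = 5 embryos per genotype, log2 fold change -0.41, standard error 0.11, 95% interval -0.65 to -0.17, FDR = 0.0770 by edgeR). This call held in only 2 of the 10 fits without 1 embryo, those without WT embryo 3 and without mutant embryo 3 (edgeR FDR from 0.0109 to 0.171 over the 10). Its exons share 358 bases with the antisense gene *Gm2670*, and since the strand setting of the counting is not given, reads of the pair cannot be told apart there.

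*Wnt5b* (ENSMUSG00000030170, chromosome 6, 119432531 to 119544347), the paralog of *Wnt5a*, was a low-abundance transcript that did not pass. WT libraries ran from 5.56 to 9.24 CPM and mutant libraries from 7.70 to 10.4 CPM, with a log2 fold change of 0.20 (n = 5 embryos per genotype, standard error 0.17, 95% interval -0.17 to 0.56, FDR = 0.615 by edgeR). Taken as a ratio within each library, which does not depend on scaling, *Wnt5a* exceeded *Wnt5b* by 51.0 ± 4.56 times in WT and 34.0 ± 5.64 times in *Lmx1a-/-* CH, in normalized CPM without division by exon length (7823 and 2654 bases). All 5 mutants lay below all 5 WT embryos, and the log2 ratio differed by -0.58 (two-sided exact permutation test, n = 5 embryos per genotype, p = 0.00794, the smallest this design can give, BH-adjusted p = 0.0159 over 4 ratios). Without WT embryo 5 the adjusted exact p was 0.0635.

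*Wnt7b* and *Wnt7a* are paralogs expressed by neural progenitors and known for guiding vessels into the brain. *Wnt7b* (ENSMUSG00000022382, chromosome 15, 85535437 to 85582473) had 68.9, 85.1, 62, 102 and 81.0 CPM in WT embryos 1 to 5 and 81.2, 83.0, 101, 62 and 69.0 CPM in mutant embryos 1 to 5. The groups covered the same range, and the log2 fold change was -0.0081 (n = 5 embryos per genotype, standard error 0.15, 95% interval -0.32 to 0.31, FDR = 0.987 by edgeR). Its exons share 324 bases with the antisense gene *AU022754*. If the counting ignored the strand, which is not stated, reads there could not be assigned to either gene. *Wnt7a* (ENSMUSG00000030093, chromosome 6, 91363981 to 91411363) had 7.13, 4.56, 11.9, 9.34 and 4.25 CPM in WT and 5.52, 1.74, 2.79, 5.32 and 4.42 CPM in mutant embryos (log2 fold change -0.90, n = 5 embryos per genotype, standard error 0.35, 95% interval -1.66 to -0.14, FDR = 0.213 by edgeR). The *Wnt7a* to *Wnt7b* log2 ratio differed by -0.82 between genotypes and did not pass (two-sided exact permutation test, n = 5 each, p = 0.159, BH-adjusted p = 0.212).

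*Wnt4* and *Wnt3* varied most between embryos of the same genotype. *Wnt4* (ENSMUSG00000036856, chromosome 4, 137277489 to 137299726), known from kidney, ovary and skin, had 11.2, 36.0, 9.18, 90.2 and 5.65 CPM in WT embryos 1 to 5 and 7.15, 1.63, 13, 1.22 and 0.452 CPM in mutant embryos 1 to 5. WT embryos 4 and 2 stood far above the other 8 libraries, and 3 mutants lay below every WT embryo. The log2 fold change of -2.68 did not pass (n = 5 embryos per genotype, standard error 0.89, 95% interval -4.59 to -0.77, FDR = 0.145 by edgeR), and without mutant embryo 3 it was -3.52 and passed (edgeR FDR = 0.0752), while without WT embryo 4 it was -1.71 (edgeR FDR = 0.347). *Wnt3* (ENSMUSG00000000125, chromosome 11, 103774150 to 103817957), a canonical ligand of early embryo and limb ectoderm, had 1.34, 7.49, 1.47, 10.7 and 0.739 CPM in WT and 2.23, 2.23, 4.77, 0.942 and 1.6 CPM in mutant embryos. Again WT embryos 4 and 2 were the highest, and the log2 fold change was -0.87 (n = 5 embryos per genotype, standard error 0.67, 95% interval -2.32 to 0.57, FDR = 0.565 by edgeR), or -0.22 without WT embryo 4 (edgeR FDR = 0.913). The *Wnt3a* to *Wnt3* log2 ratio differed by -0.074 (two-sided exact permutation test, n = 5 each, p = 0.905, the largest p of the 4 ratios).

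*Wnt4* and *Wnt3* were set beside markers of surface ectoderm and skin, a list of 7 genes (*Krt5*, *Krt14*, *Krt15*, *Trp63*, *Cdh1*, *Perp* and *Esrp1*) chosen after the *Wnt4* levels had been seen. Their summed level was 53.5, 135, 134, 1075 and 35.3 CPM in WT embryos 1 to 5 and 51.9, 3.42, 110.2, 7.20 and 13.5 CPM in mutant embryos 1 to 5. WT embryo 4, the highest library for *Wnt4* and *Wnt3*, was also the highest for these markers, with *Krt5*, a basal keratin, at 378 CPM, while *Krt5* was listed at 0 in mutant embryos 2 and 4. It was the highest WT embryo for *Wnt5a*, *Wnt5b* and *Wnt7b* as well, and without it *Wnt5a* missed the threshold (edgeR FDR = 0.147). WT embryo 5, the lowest WT embryo for these markers, had a near level of *Wnt5a* (442 against 450.2 CPM in WT embryo 4). WT embryos 2 and 3 had near-equal marker sums (135 and 134 CPM) but unlike levels of *Wnt4* (36.0 and 9.18 CPM) and *Wnt3* (7.49 and 1.47 CPM). Of the 7 markers 7 had a lower mean in the mutants, beside 50.6% of all genes tested, and 1 (*Perp*) was called. The part of these markers in the *Wnt4*, *Wnt3* and *Wnt5a* differences was not tested.

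**Figure D3:**
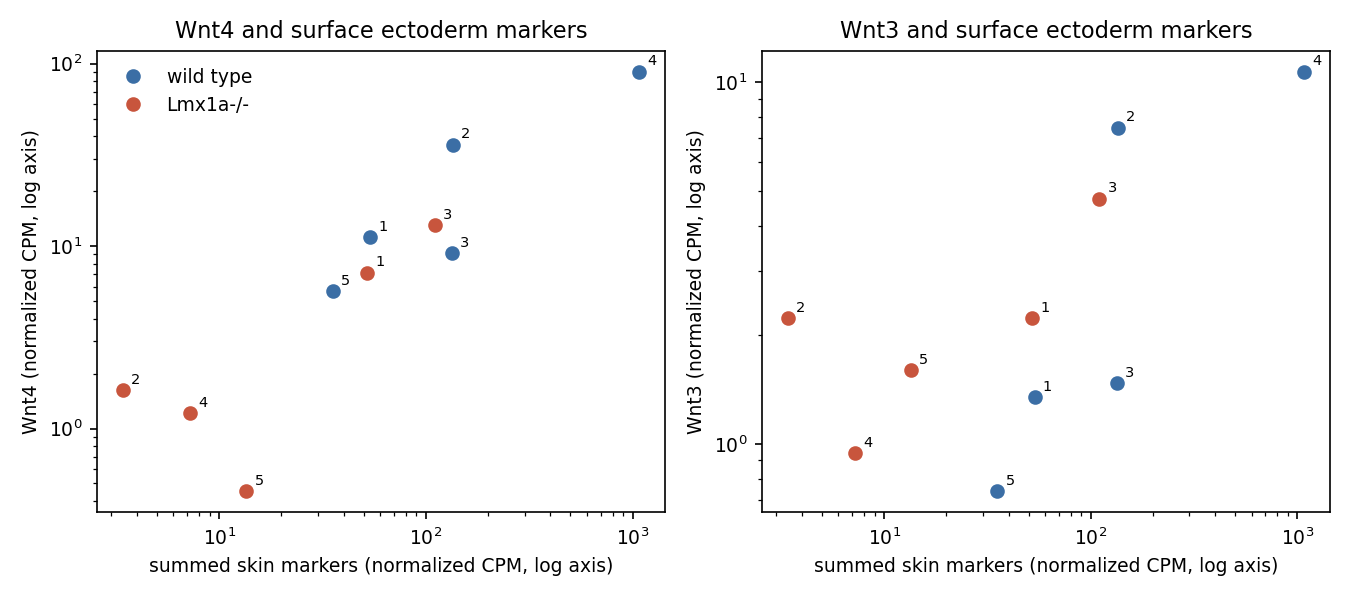
*Wnt4* (left) and *Wnt3* (right) against the summed level of 7 surface ectoderm and skin markers, all in normalized CPM on log axes, 1 point per embryo with its number (blue WT, red *Lmx1a-/-*). WT embryo 4 lies at the top right of both panels with 1075 CPM of markers, 90.2 CPM of *Wnt4* and 10.7 CPM of *Wnt3*.

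The summed ligand level overlapped between genotypes while the share of *Wnt8b* in it did not. Over the 10 ligands the summed level per kilobase was 402 ± 75.6 in WT and 369 ± 25.5 CPM per kilobase in *Lmx1a-/-* (SD over n = 5 embryos per genotype). Of this sum *Wnt8b* supplied 60.6 ± 4.81% in WT (52.7 to 65.8%) and 71.6 ± 2.38% in *Lmx1a-/-* CH (68.5 to 74.2%), so that the ranges did not overlap, although the *Wnt8b* level itself did not pass. The share of *Wnt2b* was 9.01% in WT and 4.79% in the mutants, that of *Wnt9a* 4.28% and 2.58%, and that of *Wnt5a* 12.2% and 9.93%. Without *Wnt8b* and *Wnt5a*, the remaining 8 ligands summed to 109 ± 21.6 in WT (72.1 to 126) and 68 ± 10.3 CPM per kilobase in *Lmx1a-/-* (58.7 to 81.2). Shares add to a fixed total, so a larger share of 1 ligand goes with smaller shares of others, and the shares were not tested.

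**Figure D4:**
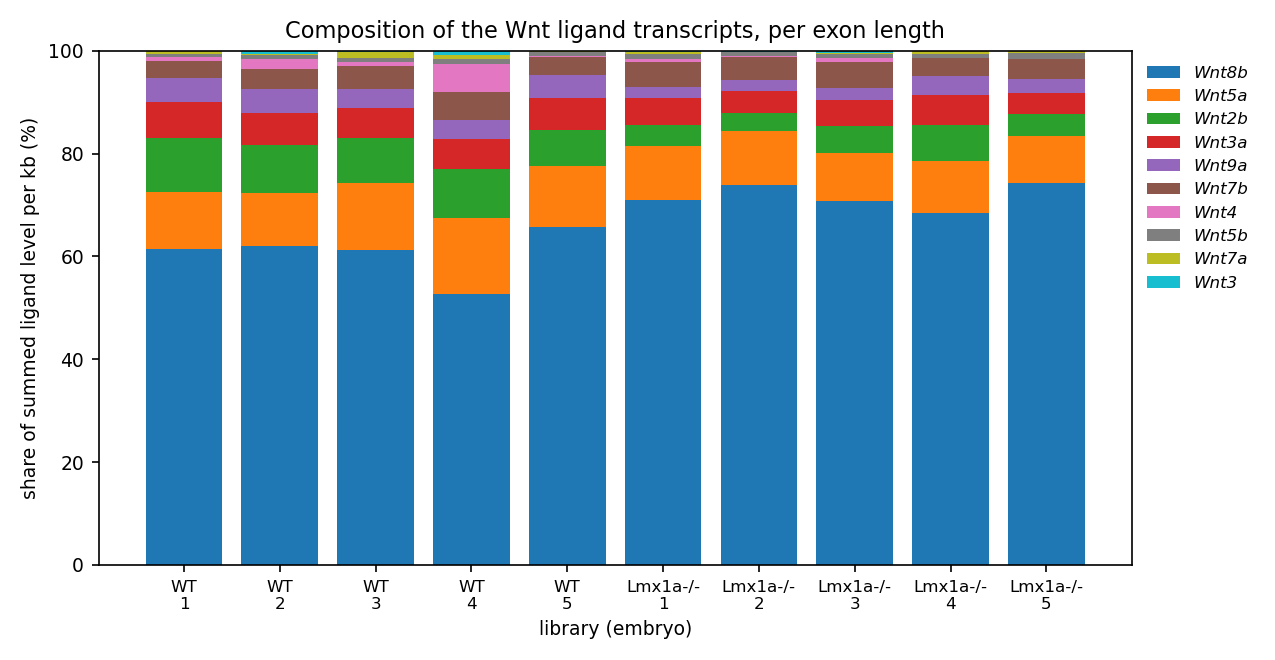
Share of each ligand (% of the summed normalized CPM per kilobase of exon) in each of the 10 libraries, WT embryos at the left and *Lmx1a-/-* embryos at the right. The *Wnt8b* share runs from 52.7 to 65.8% in WT and from 68.5 to 74.2% in *Lmx1a-/-* libraries.

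Neighboring *Wnt3a* and *Wnt9a* point away from each other on chromosome 11 with 16175 bases between them. Their ratio (*Wnt9a* to *Wnt3a*) was 0.834 ± 0.0684 in WT and 0.630 ± 0.114 in *Lmx1a-/-* CH (SD over n = 5 embryos per genotype), and all 5 mutants lay below all 5 WT embryos on the log2 ratio (difference -0.41, two-sided exact permutation test, p = 0.00794, BH-adjusted p = 0.0159). The groups nearly touched, with WT embryo 3 at a log2 ratio of -0.400 and mutant embryo 5 at -0.407. The adjusted exact p rose to between 0.0635 and 0.0794 without WT embryo 1, 2, 4 or 5. Of the 15 tested genes within 200 kb, counting the pair, the fit over all genes called 2, beside 4.02% of all genes. They were *Wnt9a*, itself 1 of the pair, and *Arf1*, a small GTPase of Golgi transport. *Arf1* fell from 320 ± 23.6 to 233 ± 40.0 CPM (SD over n = 5 embryos per genotype, log2 fold change -0.46, standard error 0.11, FDR = 0.0454 by edgeR), with every mutant library (190.5 to 274 CPM) below every WT library (292 to 356 CPM).

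Over the 10 libraries together, several ligands varied with each other once the genotype means were removed. *Wnt9a* correlated with *Wnt3a* (Pearson's r = 0.86 over 10 libraries), with *Wnt2b* (0.83) and with *Wnt8b* (0.74), and *Wnt7a* ran opposite to *Wnt8b* (-0.83). Each r pools both genotypes and need not hold in each. Mutant embryo 4, the highest mutant for *Wnt9a* (43.1 CPM), had 852 CPM of *Wnt8b*, near the mutant minimum of 844 CPM. The correlations are descriptions over libraries that also differed in markers of other tissues. WT embryo 3 was the lowest WT embryo for 7 of the 10 ligands (*Wnt2b*, *Wnt3a*, *Wnt5a*, *Wnt5b*, *Wnt7b*, *Wnt8b* and *Wnt9a*) and the highest for *Wnt7a*. It also had the lowest WT level of *Lmx1a* (45.6 CPM), the lowest of the choroid plexus markers (131 CPM), the highest of the neuroepithelial markers (835 CPM) and the highest of the mesenchymal markers (929 CPM, against 333 to 650.0 in the other WT embryos). The part of tissue makeup in the low ligand levels of this embryo was not tested.

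The gene whose pattern was most like *Wnt9a* among 11540 genes, by the same correlation over 10 libraries, was *Lmx1a* (r = 0.99), followed by *Ezr*, a linker of membrane and actin (0.98), and *Gm48015* (0.98). For *Wnt2b* the nearest were *Plxnb2*, a semaphorin receptor (0.94), the tight junction gene *Ocln* (0.93) and *C630043F03Rik* (0.93). For *Wnt5a* they were *Gm44751* (0.95), the embryonic globin *Hbb-bh1* (0.95) and the calcium channel subunit *Cacna2d3* (0.94).

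Divided by the *Lmx1a* level of the same library, a calculation chosen after these values were seen and given without a test, *Wnt9a* was nearly fixed within each genotype. *Lmx1a* had been picked as the closest of 11540 genes to *Wnt9a* in these same libraries. A narrow quotient therefore restates that correlation and is no separate support for it. WT embryos had between 0.742 and 0.878 *Wnt9a* CPM per *Lmx1a* CPM and mutants between 0.261 and 0.298. The coefficient of variation was 6.03% in WT and 5.31% in the mutants, beside 28.3% and 22.5% for the *Wnt9a* level alone. Both *Wnt3a* (0.901 to 1.04) and *Wnt8b* (11.1 to 13.2) had a similarly narrow quotient in WT, with coefficients of variation of 5.37% and 5.97%, and a wider one in the mutants (0.374 to 0.562 for *Wnt3a* and 5.88 to 9.50 for *Wnt8b*). For *Wnt2b* the quotient was 1.57 to 2.58 in WT and 0.554 to 0.721 in the mutants. Since *Lmx1a* transcripts were themselves higher in the mutants, the step between genotypes in these quotients holds the changes of both genes.

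**Figure D5:**
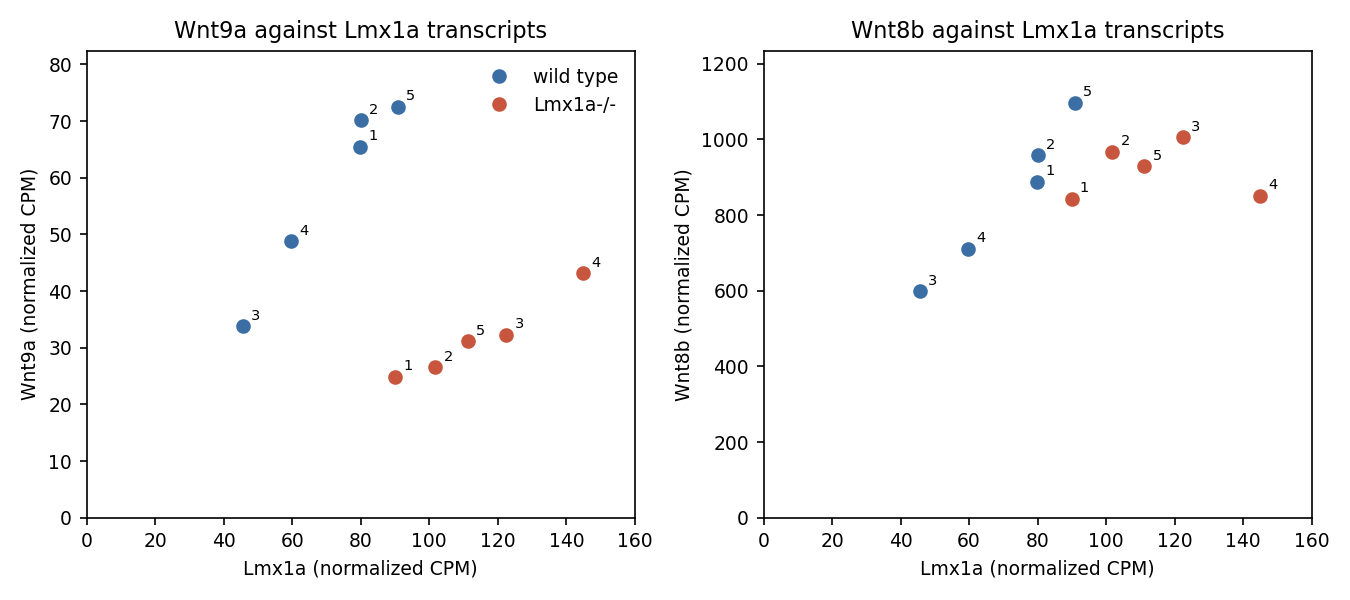
*Wnt9a* (left) and *Wnt8b* (right) against *Lmx1a*, all in normalized CPM on linear axes, 1 point per embryo with its number (blue WT, red *Lmx1a-/-*). The *Wnt9a* points form a separate line for each genotype, at 0.742 to 0.878 *Wnt9a* CPM per *Lmx1a* CPM in WT and 0.261 to 0.298 in *Lmx1a-/-*, while the *Wnt8b* points follow *Lmx1a* in WT and scatter between 844 and 1007 CPM in the mutants.

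With 4 of 5 WT embryos high in *Xist*, WT embryo 1 gives the one comparison of ligands among libraries low in *Xist*. All 5 mutants lay below WT embryo 1 for *Wnt2b*, *Wnt3a*, *Wnt5a*, *Wnt7a* and *Wnt9a*, and all 5 lay above it for *Wnt5b*. Below it lay 4 mutants for *Wnt4*, 2 for *Wnt8b*, 1 for *Wnt3* and 1 for *Wnt7b*. A fit of these 6 libraries, in which the lone WT embryo is assumed to vary like the mutants, gave log2 fold changes of -1.30 for *Wnt2b* (FDR = 0.107 by edgeR), -1.05 for *Wnt9a* (0.149) and -0.35 for *Wnt5a* (0.449), and called no ligand. With *Xist* as a covariate the log2 fold changes were -1.28 for *Wnt2b* (FDR = 0.168 by edgeR), -1.04 for *Wnt9a* (0.354) and -0.34 for *Wnt5a* (0.621). With the choroid plexus markers as the covariate they were nearer 0, at -0.44 for *Wnt2b* (FDR = 0.784 by edgeR), -0.10 for *Wnt9a* (0.972) and -0.21 for *Wnt5a* (0.880). No ligand passed in either fit, where 28 genes in all were lower and 5 higher with *Xist* and 11 and 12 with the choroid plexus markers, and these covariates correlated with genotype at r = -0.82 and -0.80 over the 10 libraries.

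Further genes of the pathway were taken from 8 lists of other ligands, processing, receptors, antagonists, R-spondins, transducers, targets and planar polarity. Of 86 tested genes, 5 were lower and 3 higher (9.30% called, beside 4.02% of all genes). The planar polarity list, which the analysis plan did not name, held 3 of the 5 lower genes. A lower mean was seen for 61 of the 86 (70.9%, beside 50.6% of all genes), and the median log2 fold change was -0.15. Leaving out 1 embryo moved the lower count to 2 without WT embryo 1, 11 without WT embryo 3, 8 without mutant embryo 3 and 3 without mutant embryo 4, and the higher count to 5 without mutant embryo 3. Of 9 other ligands, 5 were tested: *Wnt6*, *Wnt9b*, *Wnt10a*, *Wnt10b* and *Wnt11*, each with WT means between 0.623 and 3.98 CPM, and none passed. *Wnt9b*, the neighbor of *Wnt3*, had its highest levels in WT embryos 4 (12.5 CPM) and 2 (5.01 CPM), the same libraries as *Wnt3*, and was listed at 0 in WT embryo 1 and mutant embryos 2 and 4.

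Among the 8 genes that make and carry ligands, 1 passed (12.5%, beside 4.02% of all genes). It was the glypican *Gpc4*, a proteoglycan that binds Wnts at the cell surface, which rose from 74.0 ± 19.2 to 119 ± 7.98 CPM (SD over n = 5 embryos per genotype, log2 fold change 0.68, FDR = 0.0224 by edgeR). *Wls*, which escorts lipid-bound Wnts to the surface, stood at 322 ± 59.1 and 270 ± 29.5 CPM (edgeR FDR = 0.314). *Porcn*, the acyltransferase that attaches the lipid, stood at 7.51 ± 2.66 and 8.93 ± 1.88 CPM (edgeR FDR = 0.663).

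Of 16 receptors and coreceptors 1 was called (6.25%, beside 4.02% of all genes). It was the Frizzled receptor *Fzd9*, which rose from 27.1 ± 5.00 to 43.3 ± 7.15 CPM (SD over n = 5 embryos per genotype, log2 fold change 0.67, FDR = 0.0314 by edgeR). *Fzd10*, a Frizzled gene known from the CH, was at 25.0 ± 6.68 and 13.7 ± 5.63 CPM without passing (edgeR FDR = 0.110), and *Ror2*, the *Wnt5a* receptor, at 16.3 ± 1.18 and 13.6 ± 2.66 CPM (edgeR FDR = 0.376). Of 11 antagonists 1 passed (9.09%, beside 4.02% of all genes). *Frzb*, a secreted protein that binds Wnts through a Frizzled-like domain, was at 6.18 to 14.6 CPM in WT and at 32.5 to 44.7 CPM in mutant embryos, without overlap (log2 fold change 1.95, standard error 0.22, FDR = 0.000665 by edgeR). Of 8 R-spondins and their receptors, and of 18 transducers and Tcf/Lef factors, none was called in either direction, beside 4.02% of all genes.

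The 13 target and feedback genes all averaged lower in the mutants, beside 50.6% of all genes tested, and 2 passed (15.4%, beside 4.02% of all genes). *Nkd1*, a feedback inhibitor of Dishevelled, was at 104, 169.6, 96.1, 94.1 and 123 CPM in WT embryos 1 to 5 and at 64.8, 58.0, 75.4, 49.7 and 49.7 CPM in mutant embryos 1 to 5 (log2 fold change -0.98, n = 5 embryos per genotype, standard error 0.17, FDR = 0.0084 by edgeR), with all mutants below all WT embryos. *Ccnd2*, a cyclin of the G1 phase, fell from 553 ± 74.5 to 375 ± 37.9 CPM (SD over n = 5 embryos per genotype, log2 fold change -0.56, FDR = 0.0102 by edgeR). *Axin2*, the most used reporter of canonical signaling, had 238 ± 58.1 and 181 ± 32.3 CPM and did not pass (edgeR FDR = 0.261), and among the WT embryos it too was lowest in embryo 3 (154 CPM). For *Sp5* (15.4 and 14.5 CPM) and *Ccnd1* (31.5 and 31.4 CPM) the means were close.

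In the planar polarity and calcium branch, a list outside the analysis plan, 3 of 10 genes fell and none rose (30% called, beside 4.02% of all genes). *Prickle1* went from 9.27 ± 2.77 to 4.90 ± 1.05 CPM (SD over n = 5 embryos per genotype, log2 fold change -0.91, FDR = 0.0526 by edgeR). *Prickle2* went from 24.6 ± 5.94 to 15.1 ± 1.59 CPM (log2 fold change -0.70, edgeR FDR = 0.0484). Both encode cytoplasmic proteins of the polarity complex. *Celsr1*, the atypical cadherin of that complex, went from 197 ± 4.95 to 159 ± 17.5 CPM (log2 fold change -0.31, edgeR FDR = 0.0625), with the mutants between 135 and 177 CPM and WT between 193 and 205 CPM. These counts carry no set test, since the lists were chosen with results of these libraries known.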

How the data were processed

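RNA of laser-captured CH was sequenced from 5 WT and 5 *Lmx1a-/-* embryos (Pico Pure RNA, SMARTER libraries). The authors deposited raw counts per gene, made by trimming paired reads with Trimmomatic, aligning them to GRCm38 with Ensembl genes by STAR 2.7.1a and counting with HTSeq 0.11.2 (tools and versions per the submitters' processing notes), and the strand setting is not given in the sources used here. Of 52508 rows, 281 exact repeats were dropped. The 21664 genes reaching 10 counts in 3 or more libraries were scaled by TMM and compared with edgeR 4.0.16 (quasi-likelihood test, trended dispersion, no covariate, R 4.3.3), with a Benjamini-Hochberg FDR under 0.1 as the threshold. The procedure was tested on simulated counts that held no difference in sex or tissue makeup between genotypes, so that test does not bear on either. The 4 ligand ratios were tested on log2(normalized CPM + 0.5) by a two-sided exact permutation test, with BH-adjusted p under 0.05 as the threshold. DESeq2 1.42.0 and limma 3.58.1 gave alternatives, as did other scalings, filters, covariates and fits without single embryos.

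No pair of libraries of 1 genotype agreed within sampling noise. Labels number the embryos within each genotype. Named genes were the members, the called members of each pathway list and a few others of those lists chosen for their known role, tested genes within 200 kb of *Wnt3a* or *Wnt9a*, the 3 genes most correlated with each called ligand (mean of at least 5 normalized CPM), *Lmx1a* and *Xist*. Members and lists were chosen with earlier results of these data known. Promoter sequences are RefSeq's. Depth limits the rare ligands most. The p-values set the difference between genotypes against the spread between embryos. They do not separate genotype from sex, since only WT embryo 1 shared the low *Xist* of the mutants.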

Additional observations from a re-analysis of the deposited data

Results flagged for a closer look

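Within the 5 *Lmx1a-/-* libraries, *Wnt5b* stood at 10.4 normalized CPM in embryo 5 while the other 4 lay between 7.70 and 8.48 CPM, a gap that exceeds Dixon's critical value for 5 samples. It was the 1 flagged value among 54 groups of 5 examined, and chance alone flags about 1 group in 20.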

How the results depend on the processing

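The count of 3 lower ligands was within 1.5 times under 10 of 15 alternatives other than leaving out 1 embryo. It was 6 by DESeq2, 1 (*Wnt2b*) with the replicate block, and 0 with the *Xist* covariate, with the choroid plexus covariate and among the 6 libraries low in *Xist*, a fit with fewer libraries. Fits without 1 embryo gave 1 to 4, with 1 without WT embryo 1, and the higher count stayed 0 in all 25 alternatives. With the replicate block the embryo numbers did not pair the libraries (correlations of same-numbered libraries from -0.14 to 0.033, 0 of 10 libraries closest to their own number), and the edgeR FDR was 0.172 for *Wnt5a* and 0.111 for *Wnt9a*. Under sign flips of same-numbered embryos, whose smallest exact p is 0.0625, the log2 ratios of *Wnt5a* to *Wnt5b* (-0.58) and *Wnt9a* to *Wnt3a* (-0.41) had an adjusted p of 0.125.

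The other pathway genes, 5 lower and 3 higher, were 13 and 6 by DESeq2, and 0 and 0 with either covariate. The lower count was 3 at an FDR under 0.05, 1 among libraries low in *Xist*, 11 by the likelihood ratio test and 8 with the newer dispersion method. The higher count was 5 with library size only and 5 without WT embryos 3 and 4, an alternative chosen after seeing the data. Fits without 1 embryo gave 2 to 11 lower and 3 to 5 higher genes. Log2 ratios ran over these fits from -0.54 to 0.35 (*Wnt3a* to *Wnt3*), from -0.64 to -0.48 (*Wnt5a* to *Wnt5b*), from -1.02 to -0.55 (*Wnt7a* to *Wnt7b*) and from -0.48 to -0.33 (*Wnt9a* to *Wnt3a*).

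Log2 fold changes changed sign for *Wnt3* with the *Xist* covariate (0.89), the choroid plexus covariate (0.13) and libraries low in *Xist* (0.80), for *Wnt3a* with the choroid plexus covariate (0.18) and for *Wnt8b* without WT embryos 3 and 4 (-0.098). *Wnt7b*, near 0, was at 0.21, 0.26 and 0.20 under the same first 3 settings, at 0.0086 with library size only, at 0.0085 with upper quartile scaling, at 0.014 without WT embryos 3 and 4 and between -0.12 and 0.090 without 1 embryo. The cause of these changes was not tested. No scaling moved the median of all genes by over 0.1.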
